A study of Mus musculus with 4 samples.

Results

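The transporters examined here carry amino acids and short peptides across the membranes of intestinal epithelial cells. They are 10 genes chosen by name, with earlier results of these data known: Slc3a1, Slc7a9, Slc7a7, Slc7a8, Slc6a19, Slc15a1, Slc1a1, Slc3a2, Slc7a5 and Slc36a1. All probe sets that the platform annotation assigns to exactly 1 gene, that gene being on this list, were taken. This gave 14 probe sets for 10 genes, out of 34945 probe sets with 1 gene symbol for 18193 genes. The arrays measured mouse intestinal crypts cut out by laser capture microdissection. There were 2 arrays of crypts with beta-catenin deleted by means of tamoxifen (mutant) and 2 arrays of control crypts, all at day 2. The promoter and cell type that drive the deletion, the deleted exons, the control genotype and its tamoxifen treatment, and the strain, age, sex and pooling of the mice are not given in the labels. Whether both samples of a group are from different animals is not given either, so the p-values rest on a spread that could be technical.

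Enterocytes take up the products of protein digestion at the brush border as free amino acids and as short peptides, and release amino acids to the blood at the basolateral membrane. Several carriers are heteromers, in which a heavy chain from the SLC3 family brings a light chain from the SLC7 family to the membrane. At the brush border the heavy chain rBAT (Slc3a1) pairs with the cystine and cationic amino acid carrier encoded by Slc7a9, and at the basolateral side the heavy chain CD98 (Slc3a2) pairs with the carriers of Slc7a7, Slc7a8 and Slc7a5. Others, such as the neutral amino acid carrier of Slc6a19 and the peptide carrier of Slc15a1, work without a heavy chain. These genes are best known from absorptive villus cells, while Slc7a5 is known from dividing cells.

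RefSeq promoter windows (GRCm38.p6, 250 bases before to 50 bases after a start site) were on hand for 9 of the 10 genes, in 14 windows. The windows of Slc3a1 and Slc7a9 are shown because their products form 1 carrier and their transcripts differed alike between the groups. That of Slc15a1 is shown as the gene with the widest spread within a group. Each is written 5′ to 3′ on the strand of its gene. They lie at chr17:85028097-85028396 (plus strand), chr7:35448842-35449141 (plus strand, the first of 2 overlapping windows) and chr14:121505205-121505504 (minus strand). Capitals mark matches to the motifs named after the sequences, of which the Slc7a9 and Slc15a1 windows held none.
Slc3a1: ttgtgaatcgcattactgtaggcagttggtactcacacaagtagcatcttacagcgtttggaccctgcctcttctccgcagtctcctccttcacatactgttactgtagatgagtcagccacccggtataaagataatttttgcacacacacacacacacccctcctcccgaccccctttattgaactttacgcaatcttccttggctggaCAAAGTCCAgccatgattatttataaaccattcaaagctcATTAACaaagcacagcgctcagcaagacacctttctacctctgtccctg
Slc7a9: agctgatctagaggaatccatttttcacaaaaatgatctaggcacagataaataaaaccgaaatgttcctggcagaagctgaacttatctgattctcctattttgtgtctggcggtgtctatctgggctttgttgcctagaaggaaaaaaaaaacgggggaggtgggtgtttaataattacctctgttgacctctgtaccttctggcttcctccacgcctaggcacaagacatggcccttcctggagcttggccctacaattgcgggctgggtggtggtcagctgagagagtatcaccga
Slc15a1: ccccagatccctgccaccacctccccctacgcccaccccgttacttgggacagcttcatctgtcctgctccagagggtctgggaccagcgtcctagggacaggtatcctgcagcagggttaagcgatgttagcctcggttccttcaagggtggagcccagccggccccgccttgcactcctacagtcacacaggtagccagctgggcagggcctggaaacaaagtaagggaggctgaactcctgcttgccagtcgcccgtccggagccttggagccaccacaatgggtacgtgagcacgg
Strings bound by known intestinal and stress factors were searched on both strands: GTTAAT (part of the HNF1 site), CAAAGTCCA (HNF4), TTTATG (CDX), CTTTGAT (TCF/LEF) and TGATGNAAT (the core of the amino acid response element). The Slc3a1 window held CAAAGTCCA from -39 to -31 relative to the start site, a string present in 0.475% of all 32851 windows. It also held GTTAAT on the opposite strand from 2 to 7, and that string, which does not overlap the first, was found in 7.1% of all windows. GTTAAT was also present in the single window of Slc36a1 and in 1 of the 5 windows of Slc7a7. The CDX, TCF/LEF and amino acid response strings, present in 11.9%, 3.73% and 0.965% of all windows, were in 0 of the 14 windows. These are letter matches in a short stretch only.

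Signals are given as log2(intensity + 5) after quantile normalization, and a difference is mutant minus control on that scale. The targeted gene was lower by 0.56 (SE 0.22) in mutant crypts at its brighter probe set, with both mutant arrays below both control arrays. Its dimmer kept probe set differed by 0.38 (SE 0.50) in the opposite direction. The intestinal epithelial gene Vil1 lay between 11.33 and 12.13 in all 4 arrays, and the crypt base gene Olfm4 between 10.93 and 12.52. Olfm4 differed by -1.36 (SE 0.24), with both mutant arrays below both control arrays. Mutant replicate 1 also held pancreatic transcripts: the mean of 10 of 10 measured acinar genes was 12.77 there, against 4.61 in mutant replicate 2 and 4.96 and 4.93 in control replicates 1 and 2. The 5′ to 3′ ratio of the beta-actin control probe sets, which falls as RNA gets shorter, was 0.0945 and 0.0448 in mutant replicates 1 and 2 and 0.149 and 0.0567 in control replicates 1 and 2. Results that rest on mutant replicate 1 are therefore also given without it.

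All 10 genes had a kept probe set, meaning one whose mean signal was at or above the median of all probe sets, and 12 of their 14 probe sets were kept. By the brightest probe set, 10 of 10 genes had a higher mean in mutant crypts, against 50.7% of all 11395 kept genes. The 10 genes were chosen with earlier results of these data known, so the shares of all kept genes are given for description only. Both mutant arrays lay above both control arrays for 5 genes, a pattern seen in 18.9% of kept genes. With values as deposited or median-centred it held for 4 genes, since the groups of Slc7a8 then overlapped. Both lay below for 0 of the 10, against 19.2% of kept genes. The median difference over the 10 genes was 0.62, against 0.01 over all kept genes. No gene passed the test: with limma, 0 of 10 genes had an adjusted p under 0.05, and neither did any of the 22519 kept probe sets (0%). At an unadjusted p under 0.05, 4 of the 10 genes were higher, against 3.32% of kept genes. Of the 6 genes of heteromeric carriers 5 had groups that did not overlap, and of the 4 other genes 0 did. This contrast was not tested, and it did not hold with some arrays left out: 5 of 6 heteromeric and 3 of the 4 other genes were separate and higher without mutant replicate 2 (34.2% of kept genes) and without control replicate 1 (32% of kept genes). With an array left out in turn, the number of genes with a higher mean was 7 without mutant replicate 1, 8 without control replicate 2, 9 without control replicate 1 and 10 without mutant replicate 2.

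**Figure D1:**
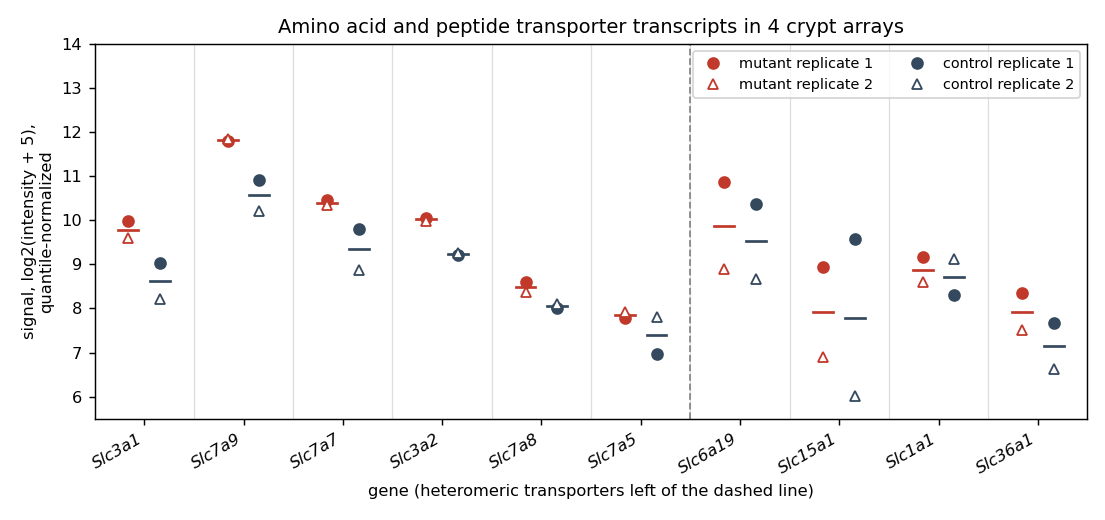
Signal of the brightest probe set of each gene, as log2(intensity + 5) after quantile normalization, with mutant arrays in red and control arrays in dark blue (filled circle, replicate 1; open triangle, replicate 2) and a bar at each group mean. Left of the dashed line stand the heteromeric carriers, of which Slc7a5 alone has overlapping groups. On the right all 4 genes overlap. Slc6a19, Slc15a1 and, by a smaller margin, Slc36a1 separate by replicate number, with both replicate 1 arrays above both replicate 2 arrays.

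Both chains of the brush border cystine and cationic amino acid exchanger were higher in the mutant arrays. Slc7a9 (chr7:35448727-35466034), the light chain that does the transport and one of the genes mutated in human cystinuria, had signals of 11.80 and 11.86 in mutant replicates 1 and 2, against 10.91 and 10.22 in control replicates 1 and 2. The mutant arrays differed by 0.05 and the control arrays by 0.69, and the groups were separate. Its difference was 1.26 (SE 0.30, 2.40-fold, 95% interval 0.58 to 1.95; limma, unadjusted p = 0.00268, adjusted p = 0.767). In the deposited intensities Slc7a9 stood at 4517 and 3450 in mutant crypts and at 1737 and 1172 in control crypts.

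Slc3a1 (chr17:85028347-85064241), the heavy chain rBAT, had 9.98 and 9.59 in mutant replicates 1 and 2, against 9.03 and 8.21 in control replicates 1 and 2. The lower mutant array was thus above the higher control array, with control replicate 2 the lowest of the 4. The Slc3a1 difference was 1.17 (SE 0.38, 2.25-fold, 95% interval 0.29 to 2.04; limma, adjusted p = 0.767). Deposited intensities were 1323 and 646 for this heavy chain in mutant crypts and 483 and 291 in control crypts. The mean absolute gap between the Slc3a1 and Slc7a9 profiles, each centred over the 4 arrays, was 0.14. Without mutant replicate 1, which held the pancreatic transcripts, the difference was 0.97 for Slc3a1 and 1.31 for Slc7a9. Leaving out control replicate 2 gave 0.76 and 0.92 in the same order, the smallest values among the alternatives run.

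The basolateral exchanger subunits gave 3 further genes with separate groups. Slc7a7 (chr14:54369442-54420068) encodes the light chain that exports cationic amino acids in exchange for neutral ones and is mutated in human lysinuric protein intolerance. Its signals were 10.46 and 10.34 in mutant replicates 1 and 2, and 9.81 and 8.88 in control replicates 1 and 2. The mutant arrays lay close together above both controls, of which replicate 2 was the lower. The Slc7a7 difference was 1.05 (SE 0.37, 2.07-fold, 95% interval 0.20 to 1.90; limma, adjusted p = 0.767), and it was 0.99 with mutant replicate 1 left out, 1.53 without control replicate 1 and 0.59 without control replicate 2. A second, dim Slc7a7 probe set below the filter had 5.30 and 2.74 in mutant arrays and 5.48 and 4.82 in control arrays, and was not tested.

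Slc3a2 (chr19:8706882-8723369), the heavy chain CD98 that Slc7a7, Slc7a8 and Slc7a5 products share, was the most even within groups. It had 10.06 and 9.98 in mutant replicates 1 and 2, against 9.22 and 9.25 in control replicates 1 and 2. Arrays of a group differed by at most 0.08, and the groups did not overlap. The difference was 0.78 (SE 0.30, 1.72-fold, 95% interval 0.09 to 1.47; limma, adjusted p = 0.786). Deposited Slc3a2 intensities were 1389 and 847 in mutant crypts and 552 and 597 in control crypts. With any 1 array left out the Slc3a2 difference lay between 0.74 and 0.81.

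Slc7a8 (chr14:54722215-54781886), a light chain that exchanges neutral amino acids, had 8.60 and 8.38 in mutant replicates 1 and 2 and 8.01 and 8.10 in control replicates 1 and 2. The groups were separate by a small margin. The Slc7a8 difference of 0.43 (SE 0.34, 95% interval -0.34 to 1.21; limma, adjusted p = 0.861) had an interval that included 0. In the deposited intensities its groups overlapped, at 493 and 264 in mutant crypts against 250 and 272 in control crypts.

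Slc7a5 (chr8:121881146-121907686), the light chain that imports large neutral amino acids such as leucine, had 7.78 and 7.93 in mutant replicates 1 and 2, against 6.97 and 7.81 in control replicates 1 and 2. Mutant replicate 1 lay just below control replicate 2, so the groups overlapped. Its difference was 0.46 (SE 0.40, 95% interval -0.45 to 1.37; limma, adjusted p = 0.870), and 0.04 without control replicate 1 or 0.88 without control replicate 2.

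**Figure D2:**
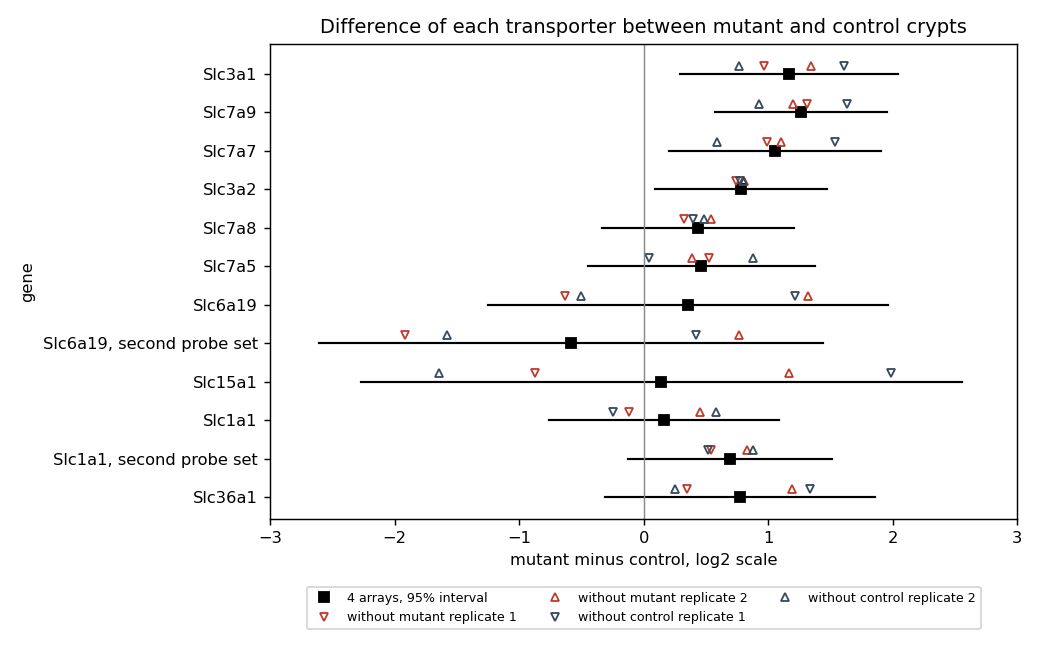
Difference of each kept probe set between mutant and control crypts on the log2 scale (squares, with 95% intervals from limma) and the same difference with 1 array left out (triangles). The intervals of Slc3a1, Slc7a9, Slc7a7 and Slc3a2 lie above 0, and those of Slc6a19 and Slc15a1 are the widest of the 10 genes, with triangles on both sides of 0.

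The brush border carriers for neutral amino acids and for peptides varied more between the arrays of a group than between the groups. Slc15a1 (chr14:121459621-121505254) encodes the proton-coupled carrier of short peptides. It had 8.95 and 6.90 in mutant replicates 1 and 2, against 9.56 and 6.01 in control replicates 1 and 2. Replicate 1 was the high array and replicate 2 the low one in both groups, and the mutant values lay inside the control range. In deposited intensity these were 641 and 89.9 in mutant crypts and 695 and 55.9 in control crypts. The gap between arrays was 2.04 in the mutant group and 3.56 in the control group, and 1.54% and 0.0527% of kept genes had a larger one there. The Slc15a1 difference was 0.14 (SE 1.06, 95% interval -2.27 to 2.55; limma, adjusted p = 0.989), so that a change of several-fold in either direction could not be detected with these arrays.

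Slc6a19 (chr13:73679745-73700780), the sodium-dependent carrier of neutral amino acids mutated in human Hartnup disorder, had the same arrangement. Its brighter probe set gave 10.86 and 8.89 in mutant replicates 1 and 2, and 10.37 and 8.67 in control replicates 1 and 2. The second probe set gave 9.53 and 6.81 in mutant replicates 1 and 2, and 9.74 and 7.76 in control replicates 1 and 2. By either probe set the arrays numbered 1 were high and those numbered 2 low, while the 2 probe sets disagreed in the sign of the group difference. The Slc6a19 difference was 0.35 (SE 0.70, 95% interval -1.25 to 1.96; limma, adjusted p = 0.955) at the brighter probe set and -0.58 (SE 0.89; limma, adjusted p = 0.937) at the other. Without mutant replicate 1 the differences were -0.64 for Slc6a19 and -0.88 for Slc15a1, and without control replicate 1 they were 1.22 and 1.98.

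Slc6a19 and Slc15a1 were 2 of 40 kept genes (0.351%) with replicate 1 more than 1.5 above replicate 2 in both groups, a limit set after their values were seen. Of the gene lists used here, this set held Slc6a20a, Treh, Pdzk1 and Gzma. Slc6a20a, a carrier of proline and other imino acids, had 10.94 and 9.41 in mutant arrays and 11.00 and 9.47 in control arrays. Treh encodes trehalase, Pdzk1 a brush border scaffold and Gzma a granzyme of intraepithelial lymphocytes. Pdzk1 had 8.45 and 4.79 in mutant replicates 1 and 2 against 9.08 and 6.51 in control replicates 1 and 2. Gzma had 11.25 and 8.73 in mutant replicates 1 and 2 against 10.57 and 8.59 in control replicates 1 and 2. The actin 5′ to 3′ ratio was also higher in replicate 1 of both groups, and the mean over 18 of 20 listed villus enterocyte genes was 11.34 and 10.64 in mutant replicates 1 and 2 and 10.97 and 10.01 in control replicates 1 and 2. The part of RNA length and of the captured cells in these gaps was not tested. In captured tissue, fewer cells of a type and less RNA per cell cannot be told apart.

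**Figure D3:**
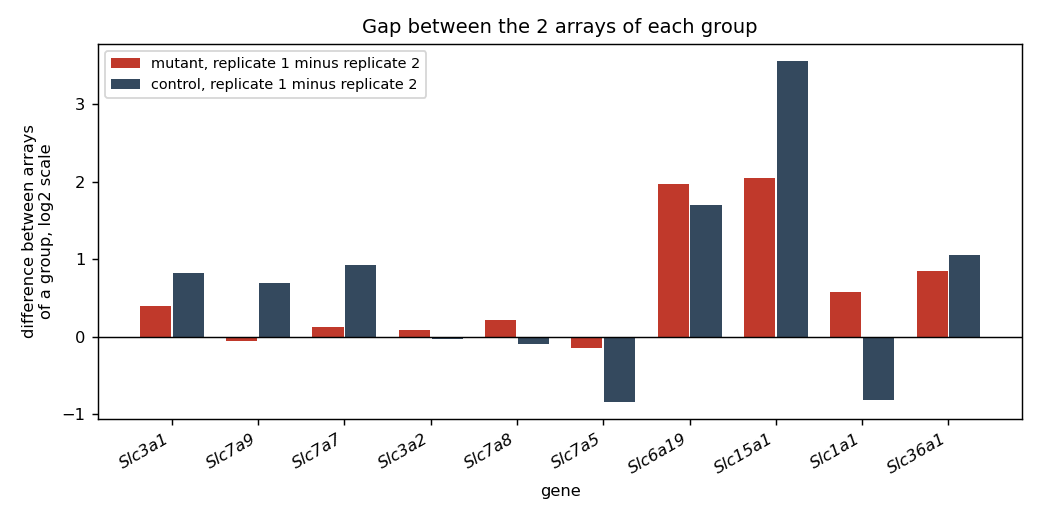
Difference between replicate 1 and replicate 2 within the mutant group (red) and within the control group (dark blue) for the brightest probe set of each gene, on the log2 scale. Slc6a19 and Slc15a1 have gaps of 1.70 or more in both groups, whereas Slc3a2 and Slc7a8 have gaps of at most 0.22.

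The remaining carriers gave overlapping groups at their brightest probe sets. Slc36a1 (chr11:55204322-55236330), which encodes a proton-coupled carrier of small neutral amino acids, had 8.35 and 7.50 in mutant replicates 1 and 2 and 7.67 and 6.62 in control replicates 1 and 2. Mutant replicate 2 fell between the control arrays, and replicate 1 was the higher array in both groups. Its difference was 0.78 (SE 0.47, 95% interval -0.31 to 1.86; limma, adjusted p = 0.824), and 0.34 without mutant replicate 1, 0.25 without control replicate 2 or 1.34 without control replicate 1.

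Slc1a1 (chr19:28835135-28913960), the carrier of glutamate and aspartate, was measured by 3 probe sets. The brightest had 9.17 and 8.59 in mutant replicates 1 and 2 and 8.31 and 9.12 in control replicates 1 and 2, with a difference of 0.17 (SE 0.40; limma, adjusted p = 0.966). The next had 8.24 and 7.96 in mutant arrays and 7.22 and 7.60 in control arrays, with separate groups and a difference of 0.69 (SE 0.36; limma, adjusted p = 0.798). The dimmest was below the filter, at 3.88 and 3.32 in mutant arrays and 2.96 and 3.33 in control arrays. All 3 had a higher mean in mutant crypts, but they disagreed on whether the groups overlapped.

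Over the 4 arrays several of the genes had similar profiles. The smallest mean absolute gap between centred profiles was 0.10, for Slc3a1 and Slc7a7, followed by 0.11 for Slc7a9 and Slc7a7, 0.14 for Slc3a1 and Slc7a9, and 0.17 for Slc7a8 and Slc3a2. Slc15a1 was the least like the other members, with its smallest gap, 0.52, to Slc6a19. Among all kept genes the 5 nearest to the Slc7a9 profile were Atrnl1, Mylip, Bco2, Dhx58 and Shpk, with gaps between 0.03 and 0.08. By nearness to Slc7a9 among all kept genes, Slc7a7 ranked 16 and Slc3a1 ranked 30. Over 4 arrays such likeness is a description only.

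The other genes listed as amino acid and peptide carriers of the plasma membrane or lysosome were evenly split in direction. Of 36 listed genes 22 had a kept probe set, 11 with a higher and 11 with a lower mean in mutant crypts, and their median difference was 0.005. Groups were separate and higher for 4 of the 22, against 18.9% of kept genes, and separate and lower for 3, against 19.2%. By limma 0 of the 22 passed, and 3 had an unadjusted p under 0.05, against 6.93% of kept genes in either direction. The 4 with the smallest p were as follows. The taurine carrier gene Slc6a6 had 10.04 and 9.97 in mutant arrays and 9.17 and 9.26 in control arrays, a difference of 0.80 (SE 0.30). Slc43a2, a carrier of large neutral amino acids, differed by 1.16 (SE 0.50) and its family member Slc43a3 by 1.11 (SE 0.42). Slc43a3 is known as a carrier of purine nucleobases rather than amino acids, and it is included in the counts of this list. Slc38a1, a sodium-coupled glutamine carrier, differed by -0.54 (SE 0.34). For these 4 genes the adjusted p by limma was between 0.786 and 0.825. The cationic amino acid importer gene Slc7a1 differed by -0.01 (SE 0.42).

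Of the proteins known to work beside these carriers, 3 were measured. The scaffold gene Slc9a3r1, whose product anchors brush border transporters, had 12.06 and 11.67 in mutant replicates 1 and 2 and 11.21 and 10.70 in control replicates 1 and 2, with a difference of 0.91 (SE 0.29; limma, adjusted p = 0.767). Slc9a3, the sodium-proton exchanger that sustains the proton gradient used for peptide uptake, differed by 0.73 (SE 0.63) with overlapping groups. The higher Slc9a3 mean rested on mutant replicate 1, which was 1.76 above the control mean. Mutant replicate 2 minus the control mean was -0.31 for Slc9a3, the opposite direction. Pdzk1 differed by -1.18 (SE 1.14).

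Slc3a2 and Slc7a5 are known targets of the amino acid response through the transcription factor ATF4, so other genes of that response were read beside them. Of 18 listed genes 16 were kept, 9 with a higher and 7 with a lower mean, and the median difference was 0.27. Groups were separate and higher for 6 genes, against 18.9% of kept genes, and separate and lower for 2, against 19.2%. By limma 0 of the 16 passed, and 2 had an unadjusted p under 0.05, against 6.93% of kept genes. Atf4 itself had 8.96 and 9.81 in mutant replicates 1 and 2 and 10.78 and 9.19 in control replicates 1 and 2. The Atf4 difference was -0.60 (SE 0.53), with overlapping groups. The stress regulator gene Nupr1 had 9.52 and 9.10 in mutant replicates 1 and 2 and 6.73 and 7.33 in control replicates 1 and 2, a difference of 2.28 (SE 0.38; adjusted p = 0.730). The pseudokinase gene Trib3 differed by 1.49 (SE 0.37), the transcription factor gene Ddit3 by 0.84 (SE 0.37) and the lipoprotein receptor gene Vldlr by 0.76 (SE 0.41). Chac1 and Cebpb, at 0.79 (SE 0.43) and 0.54 (SE 0.33), were the remaining genes with separate and higher groups. The 2 genes with separate and lower groups were the asparagine synthetase gene Asns, at -0.32 (SE 0.32), and Phgdh, the entry enzyme of serine synthesis, at -0.61 (SE 0.33), and neither passed the test. Among other enzymes of amino acid synthesis on the list, all with overlapping groups, Psph differed by 0.22 (SE 0.36), Psat1 by -0.31 (SE 0.38), Shmt2 by -0.35 (SE 0.45) and Aldh18a1 by -0.52 (SE 0.35). Ddit4, Mthfd2 and Stc2, also with overlapping groups, differed by 0.425 (SE 0.37), 0.32 (SE 0.43) and -0.23 (SE 0.42). The members of this list thus did not share 1 direction.

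Of the marker lists read here, only those of dividing crypt cells and crypt base stem cells had separate groups for every kept gene. Of 18 measured villus enterocyte genes 15 were higher and 5 had separate groups, all higher, with a median difference of 0.42. Over all kept genes 18.9% had separate and higher groups. The villus median was 0.20 without mutant replicate 1, 0.85 without mutant replicate 2, 0.94 without control replicate 1 and 0.01 without control replicate 2. The dipeptidase gene Dpep1 differed by 2.29 (SE 0.43), and the protocadherin gene Cdhr5, Apob and the peptidase gene Dpp4 by 1.03 (SE 0.35), 1.16 (SE 0.41) and 1.11 (SE 0.48). Of the kept goblet cell genes 6 of 6 were higher (median 0.69), and of Paneth cell genes 1 of 4 (median -0.30). Of the kept leukocyte genes 6 of 8 were higher (median 0.40), and of stromal and muscle genes 5 of 6 (median 0.13). All 9 kept genes of dividing crypt cells and all 5 of crypt base stem cells were lower with separate groups. That pattern was seen in 19.2% of kept genes, and the medians of these 2 lists were -1.14 and -1.19. Of 5 proximal intestine markers 5 were lower and 3 had separate groups, against 19.2% of kept genes. The median of the 5 markers was -1.04, with -0.47 without mutant replicate 2 and -1.40 without control replicate 1. The iron exporter gene Slc40a1 among them had 9.29 and 6.39 in mutant replicates 1 and 2 and 10.78 and 10.44 in control replicates 1 and 2, a difference of -2.77 (SE 0.78; limma, adjusted p = 0.767). All 3 kept distal markers, the bile acid genes Slc51a, Slc51b and Fabp6, had a higher mean in mutant crypts, and Slc10a2 was below the filter. The Slc51a, Slc51b and Fabp6 differences were 0.80 (SE 0.39), 1.02 (SE 0.45) and 0.75 (SE 0.67). The median of the 3 was 0.80, with 0.43 without control replicate 2 and 1.25 without control replicate 1. No marker passed the test by limma. What part cell makeup, intestinal position or pancreatic RNA has in the Slc3a1, Slc7a9, Slc7a7 and Slc3a2 values was not tested. In mutant replicate 2 the measured acinar genes ran from 2.84 for Cpa1 to 10.02 for Clps. Clps was at 10.13 and 10.43 in control replicates 1 and 2. The islet genes Ins2 and Iapp had 9.15 and 10.17 in mutant replicate 1 and 5.36 and 5.99 in mutant replicate 2. They had 3.74 and 6.68 in control replicate 1 and 4.33 and 5.58 in control replicate 2. Mutant replicate 1 minus mutant replicate 2 was 0.39 for Slc3a1, -0.05 for Slc7a9, 0.12 for Slc7a7 and 0.08 for Slc3a2.

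**Figure D4:**
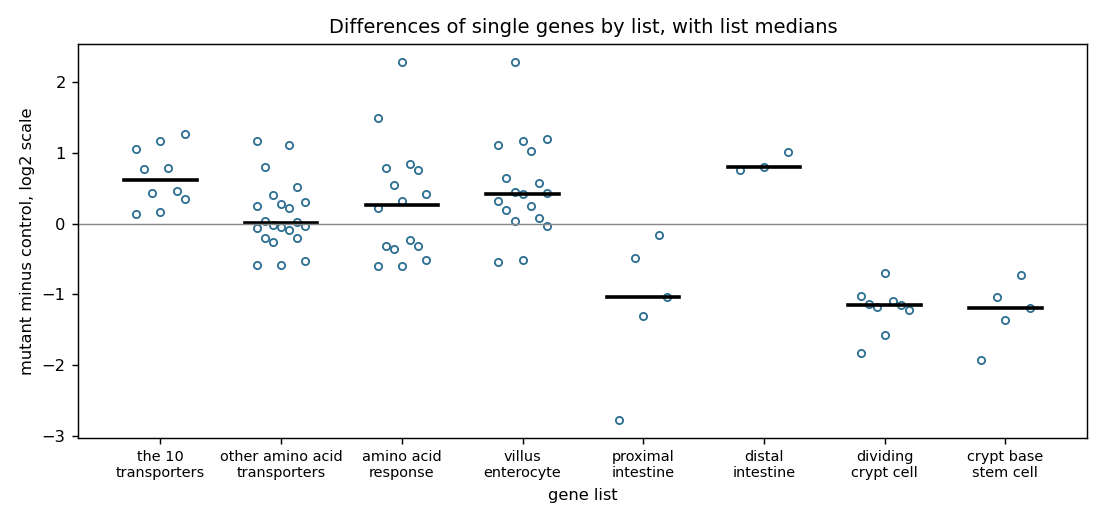
Difference of single genes between mutant and control crypts on the log2 scale, by gene list, each circle a gene at its brightest kept probe set and each bar a list median. The 10 transporters all lie above 0 with a median of 0.62, the other amino acid transporters scatter around 0, and the proximal and distal intestine markers lie on opposite sides of 0.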

How the data were processed

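Laser-captured crypts gave 4 single-colour arrays, 2 mutant and 2 control. The authors deposited linear probe set intensities from MAS5, per the submitters' processing notes. Its version and scaling target are not given there. Per the labels, mRNA was amplified before biotin labelling, which favours the 3′ ends of transcripts, and the number of arrays limits the precision. Values were transformed as log2(intensity + 5), which makes changes of dim probe sets look smaller, and quantile-normalized, since trimmed means of the deposited intensities differed up to 1.53-fold. Of 45037 probe sets without the 64 control ones, 34945 had 1 gene symbol in the platform annotation, 932 several and 9160 none. Those at or above the 50th percentile of mean signal (at least 4.79) were kept, 22519 for 11395 genes. Passing this filter could depend on 1 group. Groups were compared with limma 3.58.1 in R 4.3.3 (lmFit, eBayes with intensity trend, all 4 arrays, two-sided), and p-values were adjusted by Benjamini-Hochberg over the 22519 probe sets, after a test on simulated data. SE and 95% intervals are from that fit. A gene is its brightest kept probe set. Named genes are the members, the 5 nearest to Slc7a9 and list genes past the test, or otherwise the 4 with the smallest p. Those 4 were named for the other transporters, the amino acid response genes and the villus markers, not for most other marker lists. Other list genes were named after their values were seen. The members and lists were chosen with earlier results of these data known. Alternatives covered scaling, pseudocount, filter, trend, replicate block, each array left out and the mean of a gene's probe sets. Promoters and gene positions are from RefSeq, GRCm38.p6.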

Additional observations from a re-analysis of the deposited data

How the results depend on the processing

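With all 13 alternatives, 0 of the 10 genes passed the limma test, and Slc3a1, Slc7a9, Slc7a7, Slc7a8, Slc3a2, Slc7a5 and Slc36a1 kept a higher mean in mutant crypts. A group reduced to 1 array was assumed to vary like the other. Over all probe sets the calls were 0 as reported, 2 with the values as deposited, 102 with median centring, 1 with the replicate block, and 0 to 90 with an array left out (20 without mutant replicate 1, 90 without mutant replicate 2). Median centring moved the median of all genes to 0.13, and that of the 10 genes to 0.74. The cause was not tested. The labels share replicate numbers between groups but do not say that they pair samples; same-numbered arrays deviated together with a correlation of 0.099 over genes, and the replicate block changed no call among the 10 genes (Slc7a9 adjusted p = 0.433). With arrays left out, the median over the 10 genes ran between 0.43 and 1.28, and the number of them with separate and higher groups between 6 and 8. Fewer arrays separate more often: the share of all kept genes with that pattern was then 33.8% without mutant replicate 1, 34.2% without mutant replicate 2, 32% without control replicate 1 and 38.6% without control replicate 2, against 18.9% with all 4 arrays. Slc6a19 reversed between -0.64 and 1.32, with -0.12 as the mean of its probe sets; its second probe set ran between -1.92 and 0.76, Slc15a1 between -1.65 and 1.98 and Slc1a1 between -0.25 and 0.58. The median of the other amino acid transporters was 0.0905 with the values as deposited, 0.21 with median centring, -0.0506 with probe sets averaged and between -0.0754 and 0.24 with arrays left out. That of the amino acid response genes was -0.31 with the filter at the 75th percentile, which leaves 10 genes, 0.10 with probe sets averaged and between -0.0247 and 0.42 with arrays left out. The alternatives for counts of genes with separate groups, for the amino acid response genes, for the marker lists and for the second probe sets were chosen after seeing the data.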
